A study of Mus musculus with 18 samples.

Results

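Ralgapa2, Vps26a, Gpr89, Sos2 and Esrrg are 5 genes that were chosen by name because their change in injured mouse cartilage depended on whether the length of their transcripts was taken into account. They are 5 of 49184 genes with a transcript in the RNA-sequencing data of the anterior cruciate ligament (ACL) rupture model, and 33 of 135107 transcripts matched to a gene. Because the choice rested on the change of day 7 injured cartilage, the members' values in that group are given here as a description. A count of members past a threshold there follows from the choice and is no test, and tests of the members are kept for comparisons that leave the group out.

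The model uses a single mechanical load on the right knee that ruptures the ACL, after which femoral condyle cartilage caps are collected. All mice were wild-type C57Bl/6J males of 12 weeks at the start, and each library was made from cartilage pooled from several mice. The 18 libraries fall into 6 from naïve mice that had no procedure, labelled with day 7, while day 1 and day 7 after rupture each have 3 libraries of injured and 3 of contralateral cartilage. Contralateral means the left knee of an injured mouse, and which injured and contralateral pools share mice is not labelled. Per the study's design, left and right knees of the naïve mice were pooled separately too, so naïve libraries also share mice. The total estimated count per library ranged from 16074762 to 41794005.

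Ral GTPase-activating proteins switch off the small GTPases RalA and RalB, and Ralgapa2 encodes a catalytic subunit of that complex. Sos2 encodes an exchange factor that loads Ras with GTP below receptor tyrosine kinases. Vps26a encodes a subunit of retromer, the coat that carries membrane proteins from endosomes back to the Golgi or the plasma membrane, Gpr89 encodes a membrane protein of the Golgi needed for Golgi acidification, and Esrrg encodes the orphan nuclear receptor oestrogen-related receptor gamma, known for driving oxidative metabolism in muscle and other tissues with high energy use. For all of them a gene's read count depends on how many RNA molecules there are and on how long they are, since a longer transcript yields more fragments. A correction for length therefore divides the gene's count by the average length of its transcripts in each library, weighted by their TPM (abundance per transcript, scaled by length and by library total), and it moves the gene's change wherever that average differs between groups.

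The 33 transcripts of these genes comprise 15 annotated as protein coding, 10 with a retained intron and 8 of other classes, and 11 are under 1000 bases. In GENCODE on GRCm38, Ralgapa2 lies at chr2:146239879-146512344 on the minus strand with 11 transcripts of 597 to 11030 bases. Vps26a lies at chr10:62455235-62486805 on the minus strand with 4 transcripts of 456 to 2712 bases. Gpr89 lies at chr3:96868281-96905346 on the minus strand with 6 transcripts of 656 to 4598 bases. Sos2 lies at chr12:69583762-69681852 on the minus strand with 7 transcripts of 475 to 5607 bases, and Esrrg lies at chr1:187608791-188214885 on the plus strand with 5 transcripts of 450 to 5373 bases.

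In each gene the transcript under 1000 bases with the highest mean count in any group is followed closely here, and the sequences show what sets it apart from the main long coding transcript. Each is printed 5′ to 3′ on the gene's strand. In the first 8, lower case is the exon that both transcripts of the pair share and capitals are the bases that come after it. In the last, an intron sequence, capitals mark its first 2 bases.
Ralgapa2-207: cttcaaacttaacagGTAATTGTGTTTGAA
Ralgapa2-202: cttcaaacttaacagACAGCAGAGAATGCC
Sos2-207: acctgtgcagcttagGTTTGACCTGAATGC
Sos2-201: acctgtgcagcttagGGTCTTGAATGTCTT
Vps26a-203: atgGTAAACCTAGCCTTTAAGCAGCCTGGA
Vps26a-202: atgAGTTTTCTTGGAGGCTTTTTTGGTCCC
Gpr89-205: attggttactttatcTGCACAAACAGCGCC
Gpr89-201: attggttactttatcGTGAGTAACATCCAG
Esrrg-205: GTaaggtcctccccatgagcctggcagatg
Ralgapa2-207, a retained-intron transcript of 651 bases, reads past an exon end into the intron at chr2:146404848-146404877 and stops after 28 intron bases, whereas the coding Ralgapa2-202 goes on to the next exon. Sos2-207, a retained-intron transcript of 661 bases, holds 190 intron bases after the exon end within chr12:69614621-69614650. In both, the first intron bases are GT, the usual start of an intron. Vps26a-203, annotated as coding but without a known 3′ end, joins the exon with the start codon past 1 exon of 150 bases, over chr10:62471109-62486660. Gpr89-205, annotated as a target of nonsense-mediated decay, ends an exon 19 bases earlier than Gpr89-201, with the junction spanning chr3:96892953-96893531. Esrrg-205, a transcript of 507 bases without a coding region, holds 330 bases of intron after an early exon, beginning at chr1:187793413-187793442.

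The short transcripts differ in how much sequence they share with no other transcript of their gene. A stretch of a transcript's own is meant in that sense here. Of the members' stretches, 307 were shared with other genes. Ralgapa2-207 shares all but 32 of its 31-base stretches with other transcripts of the gene, Vps26a-203 all but 29 and Gpr89-205 all but 30. Sos2-207 has 189 stretches of its own and Esrrg-205 has 413. The error of dividing reads among transcripts is not in the values below, so no interval is given for a share.

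**Figure D1:**
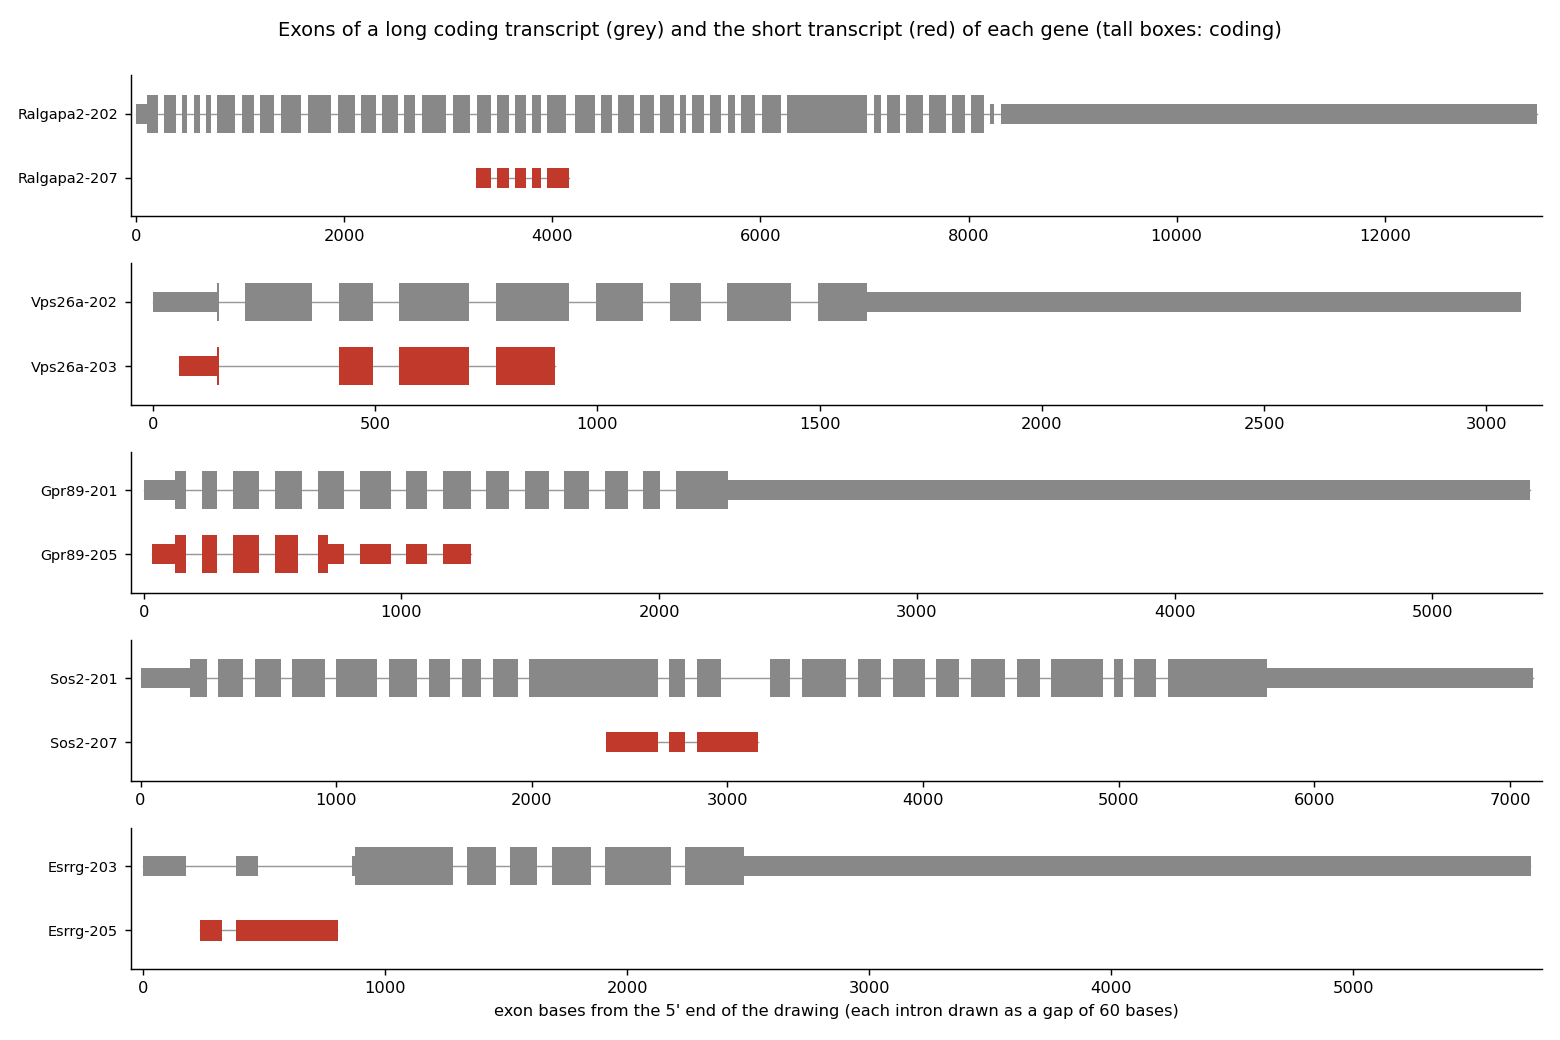
Exons of a long coding transcript (grey) and the short transcript (red) of each gene from GENCODE, with tall boxes for coding bases, drawn along exon bases from the 5′ end with every intron shortened to the same gap. The short transcripts of Ralgapa2 and Sos2 cover a few exons in the middle of the gene, those of Vps26a and Gpr89 start near the beginning of the long one and stop early, and that of Esrrg lies before the coding exons.

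The libraries hold RNA of several tissues. All 12 chondrocyte markers were detected in every library, led by Col2a1, with a summed level of 5843 ± 1455 CPM (counts scaled to the normalised library size, SD, n = 6) in naïve and 8557 ± 554 (SD, n = 3) in day 7 injured cartilage, and 4 of the 12 rose and 1 fell in edgeR's test, described below. The 12 skeletal muscle markers were all detected too, and their sum was 10434 ± 3930 CPM in naïve and 6142 ± 2028 CPM in day 7 injured libraries. The osteoblast and osteocyte markers summed to 13166 ± 3924 CPM in naïve and 51745 ± 3878 CPM in day 7 injured libraries. Of the 9, 2 were called higher and 2 lower. Col1a1, the most abundant, made up most of the sum, with 3169.5 to 4357 TPM out of 3494 to 4756 TPM in day 7 injured libraries. Taken gene by gene, the list ran from -0.955 to 2.05 in log2 fold change, with its middle value at -0.316. The sum thus does not stand for the list as a whole. The fibroblast markers summed to 3051 ± 946 and 27373 ± 2554 CPM, led by Prg4 or Col3a1, with 5 of 9 higher and none lower. Of the remaining lists, 4 of 6 endothelial markers rose, none of 7 macrophage markers was called, and 2 of 8 neutrophil and marrow myeloid and 4 of 7 erythroid markers fell. Beside these counts, 10.4% of all genes tested were called higher and 6.11% lower. No marker of these lists was at 0 in any library. Retained-intron transcripts of all genes took 2.05 to 2.14% of the counts in the 3 day 7 injured libraries and 2.49 to 4.12% in the other 15. Transcripts annotated as processed transcript were apart too, at 1.15 to 1.18% and 1.32 to 1.77%. Targets of nonsense-mediated decay overlapped, at 1.24 to 1.55% and 1.42 to 1.82%. The part of these classes in the results was not tested, and in pooled tissue fewer cells of a type and less RNA per cell cannot be told apart.

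1 day 7 contralateral library, replicate 1, stood apart from the rest. In it 42.5% of the counts came from its 10 highest genes, and in the other 17 libraries 16.6 to 29.8%. Protein-coding transcripts held 58.2% of its counts. The members' changes that rest on it are given with and without it below, and counts over the pathway lists were not made without it.

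Per unit of length the 5 genes differed in level. In naïve libraries the mean was 10.4 ± 1.12 TPM for Vps26a, 8.84 ± 0.943 for Sos2, 5.24 ± 0.650 for Ralgapa2, 3.06 ± 0.517 for Gpr89 and 1.22 ± 0.464 for Esrrg (SD, n = 6). Of the 33 transcripts, 28 reached a mean of 10 estimated counts in at least 1 group and are described singly, and the highest group mean of the other 5 was 9.58.

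Ralgapa2 was the member with the clearest difference in level. Its normalised count was 35.9, 41.6 and 43.0 CPM in the day 7 injured libraries, 51.6 to 58.7 CPM in the day 1 contralateral, 53.4 to 60.1 CPM in the day 1 injured, 52.8 to 63.2 CPM in the day 7 contralateral and 52.9 (lowest), 56.9 (median) and 65.8 (highest) CPM in the naïve libraries. All 3 day 7 injured libraries lay below the other 15, while the remaining groups overlapped. In order of mean level the groups ran from naïve (58.7 ± 4.82 CPM, SD) through day 7 contralateral (58.1 ± 5.19), day 1 injured (57.2 ± 3.46) and day 1 contralateral (55.9 ± 3.82), neighbours that differed by less than their SDs, to day 7 injured (40.2 ± 3.76).

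The transcripts that carry most of the Ralgapa2 reads are coding. Ralgapa2-202 of 11030 bases took 44.5% ± 3.12 of the gene's counts in naïve and 44.5% ± 6.84 in day 7 injured libraries, followed by Ralgapa2-211 with 22.6% ± 3.02 and 20.9% ± 7.88. Ralgapa2-205, which has no 31-base stretch of its own, took 21.1% ± 5.91 and 26.3% ± 7.83. These shares overlapped between the groups, and the log2 fold change against naïve was -0.49 (SE 0.12) for Ralgapa2-202, -0.59 (SE 0.21) for Ralgapa2-211 and -0.15 (SE 0.32) for Ralgapa2-205. Among the rest, the retained-intron transcripts Ralgapa2-201 and Ralgapa2-209 went from 3.45 and 1.79% of the counts in naïve to 1.92 and 1.5% in day 7 injured libraries, and Ralgapa2-208, a target of nonsense-mediated decay, from 0.583 to 1.25%.

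The short Ralgapa2-207 had 12.7 (lowest), 20.1 (median) and 28.4 (highest) estimated counts in naïve libraries. It had 37.4, 24.8 and 31.2 in the day 1 contralateral, 13.2, 34.6 and 10.4 in the day 1 injured, 6.59, 13.8 and 7.20 in the day 7 contralateral and 0, 0 and 5.69 in the day 7 injured libraries. In estimated counts the day 7 injured libraries were below every other library. Scaled by library size, the highest of them had 0.263 CPM, above the lowest day 7 contralateral library with 0.243 CPM. The log2 fold change of Ralgapa2-207 against naïve was -3.02 (SE 0.83). Of the gene's counts this transcript took only 1.48% ± 0.474 in naïve libraries, yet of the gene's TPM it took 17.8% ± 4.97. TPM weights each read by the inverse of its transcript's length. The longer retained-intron transcript Ralgapa2-206 was lower as well, with 55.2 ± 19.3 counts in naïve and 20.4 ± 7.38 in day 7 injured libraries. Its log2 fold change was -1.09 (SE 0.28). In counts, day 7 contralateral replicate 1, with 20.1, lay among the day 7 injured libraries. Scaled by library size it did not, as day 7 contralateral libraries had 1.56 CPM or more and day 7 injured ones at most 1.31 CPM.

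With less of the TPM in a short RNA, the average transcript length of Ralgapa2 was greater. It was 6825, 6853 and 6314 bases in the day 7 injured libraries and 5383 (lowest), 5583 (median) and 6173 (highest) bases in the naïve libraries, which did not overlap, a difference of 17.7%. The day 7 contralateral libraries, at 6384, 6185 and 6802 bases, also lay above all naïve libraries and overlapped the day 7 injured ones, as did 2 day 1 injured libraries at 6369 and 6380 bases. Against naïve, the log2 fold change of Ralgapa2 was therefore -0.53 (SE 0.084) without and -0.75 (SE 0.088) with the length correction. With transcripts under 1000 bases left out before the correction, it was -0.49 (SE 0.096). The greater average length in day 7 injured libraries rested on the short and non-coding transcripts. The difference of the means was 1000.1 bases over all transcripts, -85.5 bases over those of at least 1000 bases and -227 bases over protein-coding transcripts alone.

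1 further Ralgapa2 transcript is described because its day 1 and naïve counts did not overlap, although the naïve libraries were also used in choosing the genes. It was picked for that pattern. How many of the 63852 transcripts tested in these comparisons were likewise without overlap was not counted, so the pattern is a description only. Ralgapa2-210, a coding transcript of 5686 bases with 29 stretches of its own, had 0 estimated counts in all 6 naïve libraries. It had 23.8, 170.7 and 27.1 counts in the day 1 contralateral and 45.0, 26.5 and 28.6 in the day 1 injured libraries, 0, 0 and 13 in the day 7 contralateral and 0, 0 and 3.04 in the day 7 injured libraries. Neither day 1 difference passed edgeR's quasi-likelihood test over all transcripts (FDR 1 for day 1 contralateral and 0.72 for day 1 injured against naïve).

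Sos2, the Ras exchange factor, was also lowest in day 7 injured cartilage, by a smaller margin. Its normalised count was 59.6, 63.0 and 58.8 CPM in the day 7 injured libraries and 62.9 (lowest), 71.3 (median) and 77.9 (highest) CPM in the naïve libraries, which overlapped in 1 library. The other groups had 64.5 to 74.7 CPM in the day 1 contralateral, 65.1 to 74.6 CPM in the day 1 injured and 67.5 to 77.1 CPM in the day 7 contralateral libraries. By mean level the order was day 7 contralateral (73.6 ± 5.31 CPM), day 1 injured (71.4 ± 5.48), naïve (71.4 ± 5.34), day 1 contralateral (69.3 ± 5.16) and day 7 injured (60.5 ± 2.26), and only the last step was larger than the SDs.

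Sos2-201 of 5607 bases and Sos2-206 of 4512 bases, both coding, account for nearly all Sos2 counts. Sos2-201 took 61.3% ± 4.37 of them in naïve and 62.8% ± 4.37 in day 7 injured libraries, and Sos2-206 took 33.3% ± 4.32 and 33.5% ± 4.25. The third coding transcript, Sos2-203, had estimated counts in 1 library only, day 7 contralateral replicate 3, and 0 in the other 17. Of the retained-intron transcripts, Sos2-205 took 2.67% ± 0.332 and 2.34% ± 0.689, and Sos2-202 took 0.990% ± 0.584 and 0.760% ± 0.229.

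The short Sos2-207 had 0, 9.79 and 6.14 estimated counts in the day 7 injured libraries. It had 13.4 (lowest), 24.6 (median) and 36.1 (highest) in the naïve libraries, which did not overlap these in counts. It had 38.35, 13.8 and 24.7 counts in the day 1 contralateral, 9.19, 22.1 and 29.2 in the day 1 injured and 44.4, 9.41 and 19.1 in the day 7 contralateral libraries. In counts, the last 2 of these groups each had a library below the highest day 7 injured one. Scaled by library size, that day 7 injured library had 0.621 CPM. Every other group had a library below it, the lowest naïve one with 0.531 CPM and the lowest day 1 contralateral one with 0.506 CPM. Day 7 contralateral replicate 1 was the highest of all, and 34.4% of the gene's TPM there was given to this transcript. The average length of Sos2 was 4779, 4434 and 4378 bases in the day 7 injured libraries and 3662 (lowest), 4117 (median) and 4263 (highest) bases in the naïve libraries, without overlap and 11.1% greater, whereas day 7 contralateral replicates 2 and 3, at 4386 and 4435 bases, lay among the day 7 injured ones. The log2 fold change against naïve was -0.22 (SE 0.076) without the correction, -0.36 (SE 0.092) with it, and -0.22 (SE 0.078) with it but without transcripts under 1000 bases. The difference of the mean lengths was 454 bases over all transcripts, 41.1 bases over those of at least 1000 bases and 6.77 bases over protein-coding transcripts alone.

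For Vps26a, the retromer subunit, the correction moved the change the other way. Its normalised count was 50.3, 52.5 and 53.2 CPM in day 7 injured and 41.6 (lowest), 49.0 (median) and 50.2 (highest) CPM in naïve libraries. These groups did not overlap, day 7 injured being higher by a small margin, and the closest pair was 50.31 and 50.16 CPM, whereas both contralateral groups overlapped day 7 injured. The means ran from day 7 injured (52.0 ± 1.52 CPM) through day 1 contralateral (51.6 ± 1.16), day 7 contralateral (50.6 ± 1.51) and naïve (47.4 ± 3.31) to day 1 injured (46.6 ± 3.73), and all neighbours but day 7 contralateral and naïve differed by less than the smaller of their SDs. The coding Vps26a-202 of 2597 bases took 87.2% ± 4.16 of the counts in naïve and 89.6% ± 10.8 in day 7 injured libraries. Vps26a-201, also coding, took 10.7% ± 3.92 and 5.21% ± 7.47, and Vps26a-204 took 1.42% ± 1.15 and 1.34% ± 0.693.

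The short Vps26a-203 was given reads in only 6 of the 18 libraries. It had 73.1, 42.1 and 0 estimated counts in day 7 injured libraries, 71.0, 0 and 0 in day 7 contralateral, 33.4 and 24.0 in naïve replicates 3 and 4 with 0 in the other 4, 10.9 in 1 day 1 contralateral library and 0 in all 3 day 1 injured libraries. In day 7 injured replicate 1 those reads were 6.60% of the gene's counts but 37.6% of its TPM. The values of this transcript were all or nothing within 4 of the 5 groups, and the groups overlapped.

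The average length of Vps26a followed that transcript. It was 1626, 1746 and 2393 bases in the day 7 injured libraries and 1337, 2407 and 2418 bases in the day 7 contralateral libraries. In naïve libraries it was 1997 (lowest), 2413 (median) and 2425 (highest) bases, so that day 7 injured replicate 3 lay inside the naïve range and the other 2 below it. The log2 fold change against naïve was 0.15 (SE 0.073) without the correction and 0.46 (SE 0.11) with it, and 0.11 (SE 0.079) without transcripts under 1000 bases. The difference of the mean lengths was -378 bases over all transcripts, -3.46 bases over those of at least 1000 bases and -385 bases over protein-coding ones. With the correction the log2 fold change was 0.34 without day 7 injured replicate 1 and 0.58 without replicate 3.

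**Figure D2:**
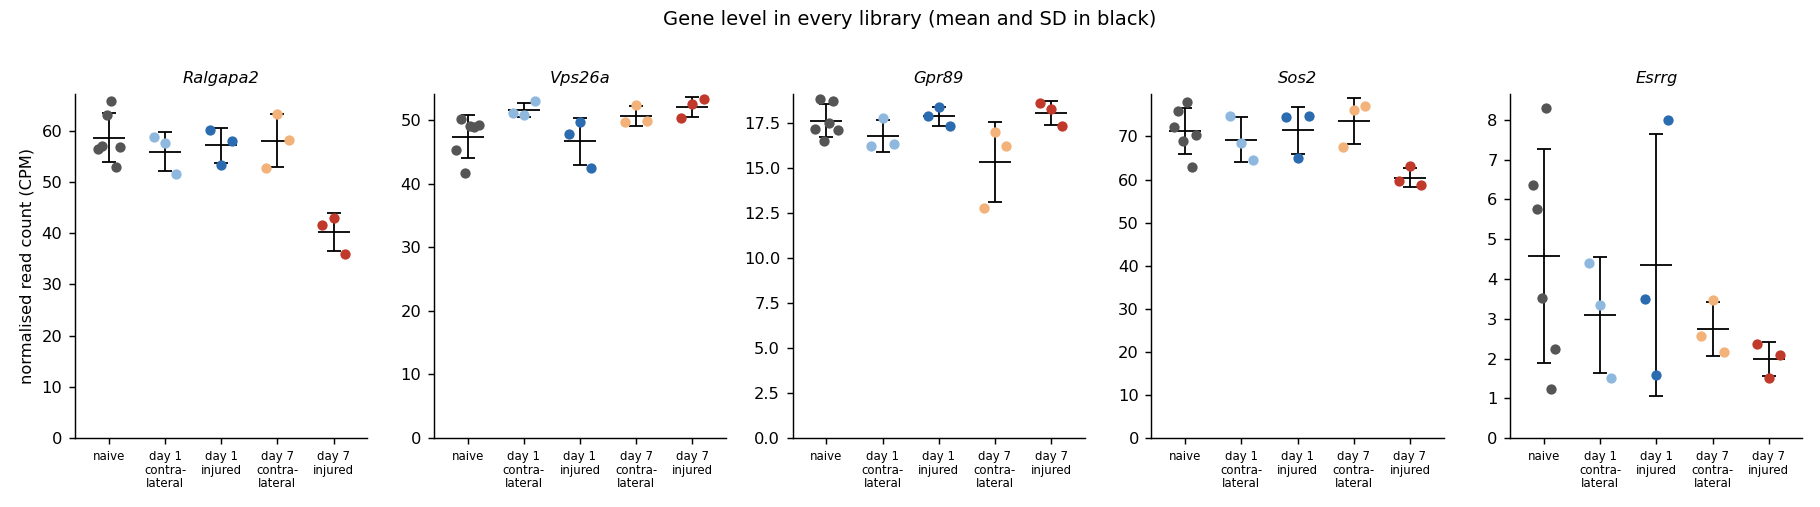
Normalised count (CPM, y axis from 0) of each gene in all 18 libraries by group, 1 point per library, with the group mean and SD in black. The 3 day 7 injured libraries of Ralgapa2, at 35.9 to 43.0 CPM, lie below all others, those of Vps26a lie just above the naïve libraries, those of Gpr89 lie among them, and Esrrg spans 1.23 to 8.30 CPM among naïve libraries alone.

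Gpr89, the Golgi membrane protein, had nearly the same count in both groups. It was 18.6, 18.2 and 17.3 CPM in day 7 injured and 16.5 (lowest), 17.3 (median) and 18.8 (highest) CPM in naïve libraries, and the groups overlapped. The order of means was day 7 injured (18.1 ± 0.681 CPM), day 1 injured (17.9 ± 0.541), naïve (17.6 ± 0.932), day 1 contralateral (16.8 ± 0.867) and day 7 contralateral (15.3 ± 2.24), and no 2 neighbours differed by more than the larger of their SDs. Day 7 contralateral replicate 1 was the lowest library with 12.8 CPM.

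Gpr89 has a single coding transcript, Gpr89-201 of 4598 bases, and 4 of its 6 transcripts are under 1000 bases. Gpr89-201 took 86.2% ± 5.74 of the counts in naïve and 91.4% ± 2.61 in day 7 injured libraries. The 4 short transcripts together took 8.23% ± 3.12 and 4.64% ± 1.20 of the counts, and 37.6% ± 10.1 and 26.5% ± 4.49 of the TPM. Among them, Gpr89-205 had 9.44, 0 and 9.35 estimated counts in day 7 injured and 6.67 (lowest), 17.5 (median) and 39.7 (highest) in naïve libraries, and the retained-intron Gpr89-202 had 3.52, 0 and 0 against 2.59 to 11.2. Gpr89-203 had 9.79 ± 8.52 in naïve and 6.43 ± 2.44 in day 7 injured libraries, and Gpr89-204, which is over 1000 bases but not coding, had 25.7 ± 14.7 and 13.3 ± 6.5.

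The average length of Gpr89 was 3218, 3378 and 3530 bases in day 7 injured and 2515 (lowest), 2888 (median) and 3544 (highest) bases in naïve libraries, which overlapped. Its log2 fold change against naïve was 0.05 (SE 0.072) without and -0.14 (SE 0.14) with the correction, so the sign turned while both values stayed within 1.1 SE of 0. With transcripts under 1000 bases left out, it was 0.10 (SE 0.077), and the difference of the mean lengths was then 17.8 bases in place of 417.

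Esrrg, the nuclear receptor, was the least abundant member, with 24 to 237 estimated counts per library. Its normalised count was 2.36, 1.52 and 2.08 CPM in day 7 injured, 2.57, 3.48 and 2.16 CPM in day 7 contralateral, 3.49, 1.59 and 8.0 CPM in day 1 injured and 4.4, 3.35 and 1.52 CPM in day 1 contralateral libraries. Naïve libraries had 1.23 (lowest), 4.64 (median) and 8.30 (highest) CPM, a range that held the libraries of every other group. By mean the order was naïve (4.57 ± 2.69 CPM), day 1 injured (4.36 ± 3.29), day 1 contralateral (3.09 ± 1.46), day 7 contralateral (2.74 ± 0.672) and day 7 injured (1.99 ± 0.428), and of the neighbours only the last 2 differed by more than an SD.

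The coding transcripts of Esrrg changed places between libraries. Esrrg-201 took 36.4% ± 30.6 of the gene's counts in naïve and 17.2% ± 16.4 in day 7 injured libraries, and Esrrg-203 took 25.3% ± 13.6 and 74.2% ± 18.9. Esrrg-202 had counts in 5 of the 18 libraries, 3 of them naïve. The short Esrrg-205, which holds intron sequence, was detected in all 18 libraries at 1 to 19.9 estimated counts. It had 6, 1 and 3 counts in day 7 injured and 8 (lowest), 10.9 (median) and 18.9 (highest) counts in naïve libraries, without overlap and with a log2 fold change of -1.60 (SE 0.49). The day 7 contralateral libraries, with 4, 11 and 7 counts, overlapped the day 7 injured ones, and the day 1 libraries, with 8 to 19.9 counts, did not. Scaled by library size, day 1 injured libraries did overlap them. The lowest of these had 0.259 CPM, and the highest day 7 injured library had 0.272 CPM. Esrrg-205 took 68.9% ± 14.7 of the gene's TPM in naïve libraries, so that 44.9 to 88.2% of that TPM rested on 8 to 18.9 counts.

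The average length of Esrrg accordingly ranged widely, from 849 (lowest) through 1676 (median) to 2922 (highest) bases in naïve libraries, with 1834, 2343 and 2407 bases in day 7 injured libraries inside that range. The direction of the difference of the means turned with the transcripts used, being 415 bases over all, -243 bases over those of at least 1000 bases and -881 bases over protein-coding ones. The log2 fold change against naïve was -1.16 (SE 0.59) without and -1.35 (SE 0.33) with the correction, and -1.04 (SE 0.67) without transcripts under 1000 bases. Libraries with more skeletal muscle RNA tended to have more Esrrg. Between the log2 CPM of Esrrg and the log2 summed CPM of the 12 muscle markers, Pearson's r was 0.83 and Spearman's rho 0.85 over the 18 libraries. Without the 2 libraries farthest from the median muscle sum they were 0.85 and 0.82, and over the 6 naïve libraries alone 0.76 and 0.60. For the other members over the 18 libraries, r was 0.53 for Ralgapa2, 0.58 for Sos2, 0.02 for Gpr89 and -0.66 for Vps26a. That of Vps26a rested on the 2 farthest libraries, without which r was -0.38 and rho -0.22, with a rho of -0.45 over all 18. Over the 6 naïve libraries alone, r and rho were 0.80 and 0.89 for Ralgapa2, higher than for Esrrg, and 0.66 and 0.43 for Sos2. They were -0.43 and -0.31 for Gpr89 and -0.50 and -0.26 for Vps26a. These are descriptions and carry no p, as the libraries share mice and tissue make-up. The day 1 injured library with 8.0 CPM of Esrrg had the highest sum of the 12 muscle markers, 17881 CPM, and the day 1 injured library with 1.59 CPM had one of the lowest, 5183 CPM. The naïve library with 1.23 CPM had 5131 CPM of muscle markers. Acta1 was the most abundant of them in 14 of the 18 libraries and Ckm in 4, no marker was at 0 in any library, and 1 of the 12 passed the test as lower in day 7 injured than in naïve cartilage. The part of muscle RNA in the Esrrg values was not tested.

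**Figure D3:**
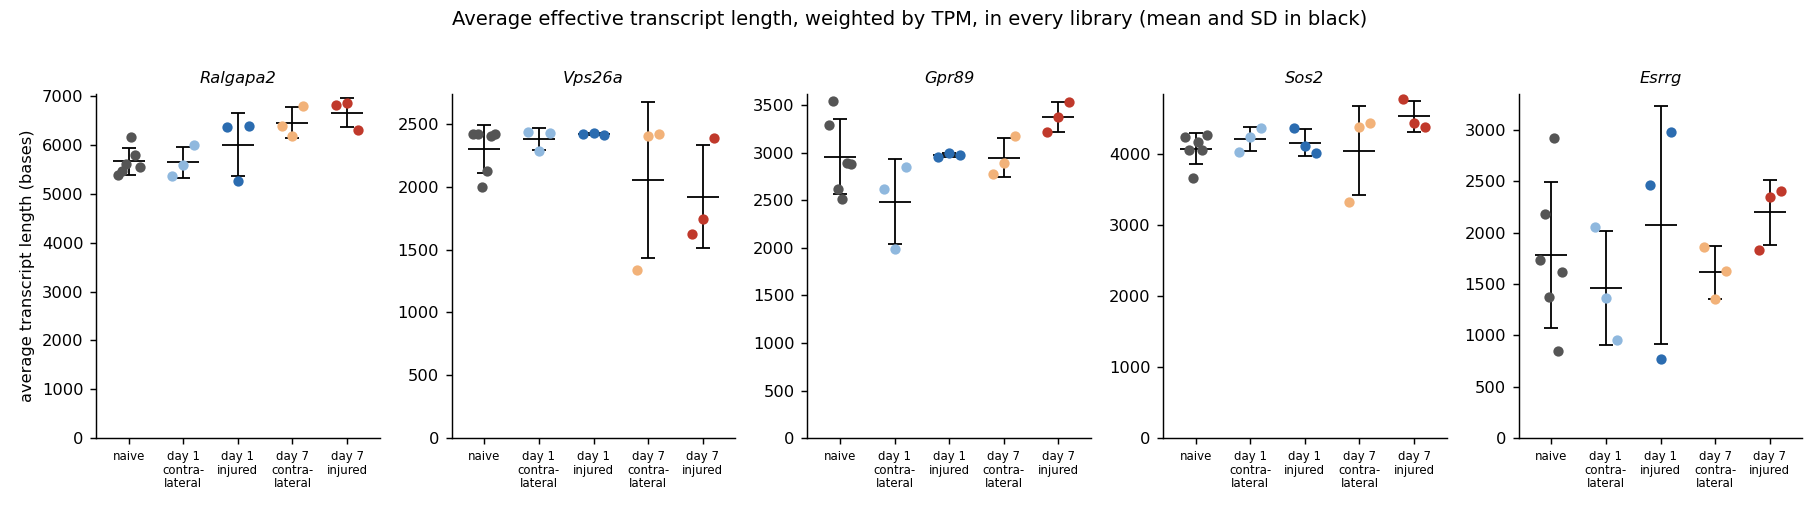
Average effective transcript length in bases (y axis from 0), weighted by TPM, for each gene in all 18 libraries by group, with the group mean and SD in black. The day 7 injured libraries of Ralgapa2 (6314 to 6853 bases) and Sos2 (4378 to 4779 bases) lie above every naïve library, 2 of 3 of Vps26a lie below every naïve library, and those of Gpr89 and Esrrg overlap them.

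**Figure D4:**
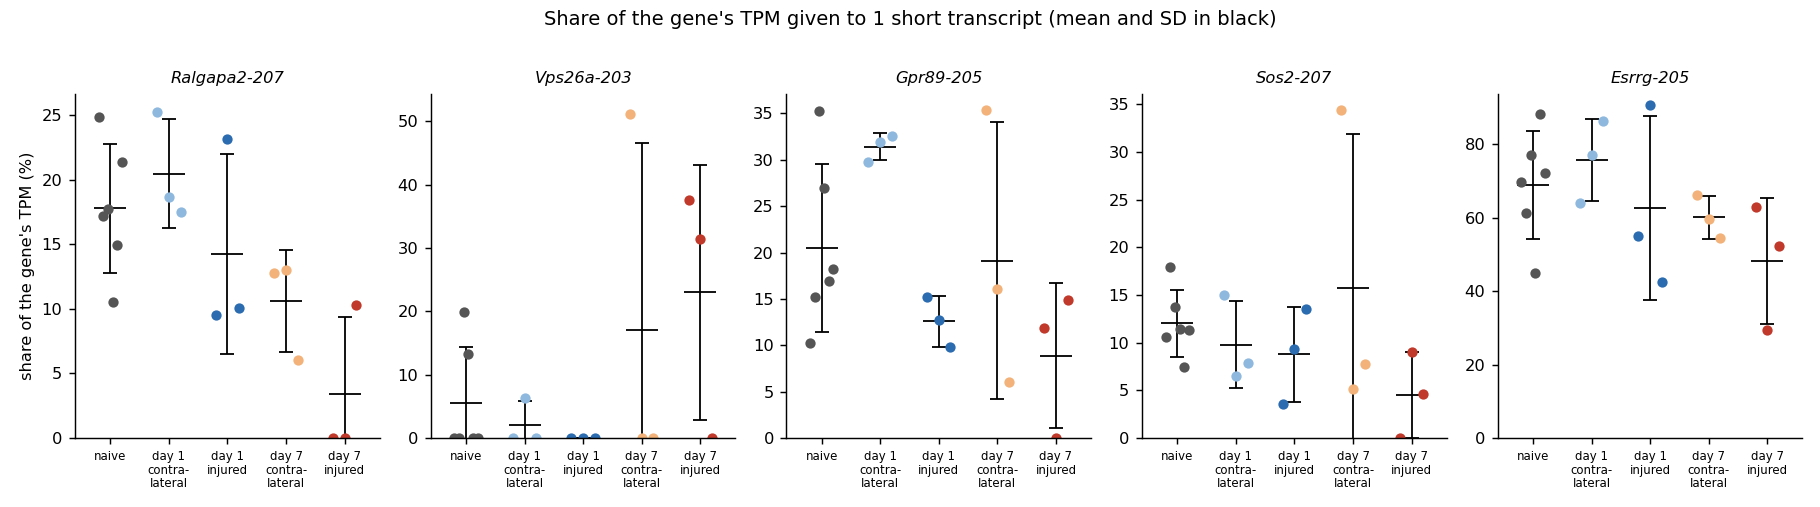
Share of each gene's TPM (percent, y axis) given to its short transcript in all 18 libraries by group, with the group mean and SD in black (bars end at 0). Vps26a-203 is at 0 in 12 libraries and reaches 51.2% in day 7 contralateral replicate 1, and Esrrg-205 takes between 29.4 and 90.7% in every library.

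Side by side, the 5 genes show how the correction moved the day 7 change. It lowered the log2 fold change against naïve by 0.22 for Ralgapa2, by 0.14 for Sos2, by 0.19 for Gpr89 and by 0.19 for Esrrg, and raised that of Vps26a by 0.30. A larger shift in either direction was seen in 7.66% of the 21129 genes tested for Ralgapa2, 15.5% for Sos2, 4.39% for Vps26a, 10.05% for Gpr89 and 10.2% for Esrrg, and the median shift was 0.01. Over all genes the sign of the change turned in 6.43%. The average length over all transcripts differed by more than that of Esrrg (23.3%) in 3.55% of genes and by more than that of Sos2 (11.1%) in 13.4%, with a median difference of 0.256%, and 5349 of the genes have 1 transcript in the files and so no difference in composition.

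A gene was called where edgeR's quasi-likelihood test gave an FDR of at most 0.05 with a fold change of at least 1.5. For day 7 injured against naïve, where the genes were chosen, the count of members past both thresholds follows from the choice. It was 0 of 5 without the correction, beside 10.4% of all genes called higher and 6.11% lower. With the correction it was 2 of 5, Ralgapa2 and Esrrg, beside 9.92% higher and 5.48% lower, and without transcripts under 1000 bases it was 0 of 5. The 2 genes missed different thresholds without the correction. Ralgapa2, at -0.53 (SE 0.084), was short of 1.5-fold and reached -0.75 with it. Esrrg, at -1.16, was beyond 1.5-fold and missed the FDR, with an SE of 0.59 without and 0.33 with the correction. Over the 21129 genes the middle log2 fold change was -0.04 without the correction. Of the transcripts, 27 of the 33 could be tested, and Ralgapa2-207 and Ralgapa2-206 were lower beyond both thresholds, beside 4.55% of all transcripts higher and 2.73% lower. By average length, 2 of the 5 genes had all day 7 injured libraries longer than all naïve libraries, which held for 3.42% of genes, and none had them all shorter, which held for 1.30%.

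Day 7 injured cartilage gave other shifts when set against other controls, with which the first comparison shares the injured libraries. Against day 7 contralateral, the log2 fold change without and with the correction was -0.53 and -0.57 for Ralgapa2, -0.28 and -0.44 for Sos2, 0.04 and 0.10 for Vps26a, 0.23 and 0.05 for Gpr89, and -0.45 and -0.90 for Esrrg. The number of members past both thresholds was 0 either way, beside 9.33% of genes higher and 3.23% lower without, and 8.05% and 3.13% with the correction, and so it was for their transcripts, beside 2.69% higher and 0.486% lower. Without day 7 contralateral replicate 1, the values were -0.57 and -0.63 for Ralgapa2, -0.32 and -0.37 for Sos2, 0.05 and 0.40 for Vps26a, 0.14 and -0.02 for Gpr89, and -0.46 and -1.03 for Esrrg, and 2464 genes were called without and 2175 with the correction, in place of 2670 and 2377. The corrected value of Vps26a moved most, that library having its shortest average length. Against day 1 injured, the changes were -0.49 and -0.63 for Ralgapa2, -0.22 and -0.33 for Sos2, 0.18 and 0.56 for Vps26a, 0.03 and -0.13 for Gpr89, and -1.08 and -1.10 for Esrrg. As a description, 0 of 5 were past both thresholds without the correction, beside 9.04% of genes higher and 6.38% lower, and 2 of 5, Ralgapa2 and Esrrg, with it, beside 8.51% and 5.20%. Among the transcripts, Ralgapa2-206 alone was past both, beside 3.48% of transcripts higher and 2.39% lower. Without day 1 injured replicate 3, the library rich in muscle RNA, the uncorrected change of Esrrg was -0.33.

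**Figure D5:**
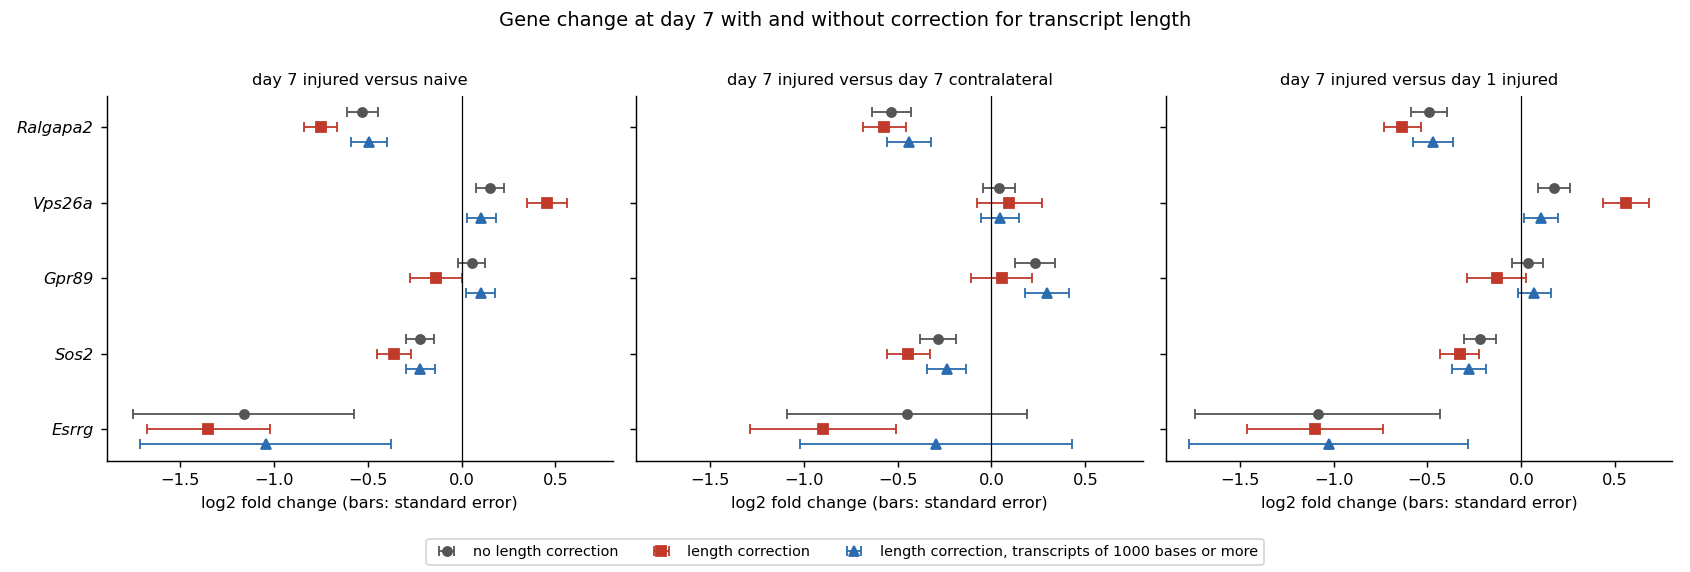
Log2 fold change (x axis, bars are standard errors) of each gene in day 7 injured cartilage against naïve, day 7 contralateral and day 1 injured cartilage, without length correction (grey circles), with it (red squares) and with it on transcripts of at least 1000 bases (blue triangles). Against naïve the red squares of Ralgapa2 (-0.75) and Vps26a (0.46) stand away from grey (-0.53 and 0.15) and blue (-0.49 and 0.11).

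The 4 comparisons without day 7 injured libraries can be tested, although 3 of them share the naïve libraries with the comparison the genes were chosen on. In day 1 injured against naïve, day 1 injured against day 1 contralateral, day 1 contralateral against naïve and day 7 contralateral against naïve, none of the 5 genes was called with or without the correction, as 0% of all genes and 0% of transcripts were called by edgeR. Unadjusted p was under 0.05 for 959, 1383, 554 and 3220 genes, DESeq2's Wald test called 15, 0, 2 and 8, and limma-voom called 0 in each. Among the members the lowest FDR was that of Vps26a with the correction in day 7 contralateral cartilage (edgeR, log2 fold change 0.35, SE 0.15, FDR 0.28). Without the correction it was that of Gpr89 in the same comparison (-0.20, SE 0.091, FDR 0.33). Both moved towards 0 without day 7 contralateral replicate 1, to 0.06 for Vps26a and -0.09 for Gpr89.

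The shift by the correction was not confined to day 7. For day 1 injured against day 1 contralateral, it moved Esrrg from 0.49 (SE 0.62) to -0.02 (SE 0.35) and Gpr89 from 0.09 (SE 0.082) to -0.22 (SE 0.16), shifts that 0.866% and 2.75% of genes exceeded. Gpr89-205 had 32.4, 48.3 and 50.2 counts in day 1 contralateral and 17.8, 15.1 and 8.50 in day 1 injured libraries, with no overlap. In this comparison edgeR called 0 of 63852 transcripts, and how many of them were without overlap is not given here. At day 1 the average length of Gpr89 was 490 bases greater in the injured than in the contralateral libraries. The exact permutation test gave p = 0.1 (2-sided, the smallest that 3 against 3 allows, adjusted p = 0.952 over 20 tests). The lengths were 2951, 2997 and 2977 bases in the injured and 2619, 1986 and 2852 bases in the contralateral libraries. Contralateral replicate 2, at 1986 bases, thus widened the gap, and the naïve mean was 2958 bases. The average length of Ralgapa2 was 793 bases greater in day 7 contralateral than in naïve libraries (14.01%, exact permutation test, 2-sided, p = 0.0238, the smallest possible, adjusted p = 0.476 over 20 tests), and 1.24% of genes had all day 7 contralateral libraries longer than all naïve ones. The tests treat all libraries as independent, so sharing of mice among naïve libraries, which may make p too small, and between injured and contralateral pools is not accounted for. For Ralgapa2 the naïve lengths were also part of the comparison the gene was chosen on. Short naïve averages therefore favour this outcome in advance, and its p decides nothing. The Ralgapa2 difference was 830 bases without day 7 contralateral replicate 1 and -102 bases with protein-coding transcripts alone. For the other 18 tests of 5 genes in 4 comparisons the exact p was 0.167 or more, with adjusted p of 0.952 or more.

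Related genes were read from lists of each pathway, which include the members, and compared with the shares of all genes called higher and lower given above. The paralogues gave small differences between day 7 injured and naïve cartilage that passed neither threshold, with log2 fold changes of -0.02 (SE 0.074) for Ralgapa1, 0.16 (SE 0.068) for Vps26b, 0.21 (SE 0.082) for Sos1, -0.12 (SE 0.15) for Esrra and -0.45 (SE 0.66) for Esrrb. Of 14 genes around the Ral GTPases, the exchange factors Ralgds (1.04, SE 0.13), Rgl1 (0.71, SE 0.11) and Rgl3 (0.72, SE 0.18) rose at an edgeR FDR of 0.008 or less and none fell, with a median of 0.11. None of 18 retromer, sorting nexin and WASH complex genes was called (median 0.16). Of 12 ion and pH regulators of the Golgi and other organelles, the sodium-proton exchanger Slc9a5 (1.07, SE 0.29) and the chloride-proton exchanger Clcn5 (0.92, SE 0.12) rose and none fell (median 0.18). Of 32 genes around Ras and the MAP kinase cascade, the small GTPases Mras (1.42, SE 0.12) and Rras (0.74, SE 0.090) and the Ras pathway inhibitor Spred1 (0.59, SE 0.087) rose, the exchange factor Rasgrf1 fell (-0.71, SE 0.24), and 28 were not called (median 0.13). None of 15 oestrogen-related receptors, coactivators and metabolic targets was called (median -0.23). Against day 7 contralateral, the numbers higher and lower were 2 and 0 around Ral, 1 and 0 of the Golgi list, 3 and 2 around Ras and 0 in the other lists. Against day 1 injured they were 2 and 1 around Ral, 1 and 0 of the Golgi list, 2 and 2 around Ras, 0 and 2 of the receptor list and 0 of the retromer list. In the 4 comparisons without day 7 injured libraries no gene of these lists was called.

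The genes whose level followed each member most closely over the 18 libraries are given as a description. For Ralgapa2 they were the phosphatase gene Cdc14a (Pearson's r of log2 CPM 0.94), the sorting receptor gene Sort1 (0.90) and Ripor2 (0.89). For Sos2 they were Acsm3 (0.94), Fmo5 (0.92) and the lipid droplet gene Cidec (0.91), which is among the adipocyte markers. The 6 adipocyte markers summed to 208 ± 44.1 CPM in day 7 injured and 485 ± 195 CPM in naïve libraries, led by Cfd in 17 libraries and Fabp4 in the other, with none at 0, and 3 of the 6 passed as lower. For Vps26a they were the ubiquitin-like modifier gene Nedd8 (0.84), Slc25a24 (0.84) and Smndc1 (0.83), and for Gpr89 they were Tmem126a (0.92), the long non-coding RNA Ptgs2os2 (0.92) and Mtpap (0.92). For Esrrg they were the fatty acid-binding protein gene Fabp3 (0.97), Fndc5 (0.97) and the muscle alpha-actinin gene Actn2 (0.96). The libraries share their tissue make-up, and the part of muscle and adipose RNA in these likenesses was not tested.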

How the data were processed

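RNA from mouse femoral condyle cartilage was sequenced as stranded, ribosomal RNA-depleted paired-end libraries. Per the labels and the study's methods, the authors trimmed reads with Trimmomatic and quantified transcripts with kallisto, and deposited estimated counts, effective lengths and TPM (length- and library-scaled abundance, also deposited by the authors) for each library. The study removed 1 library, and the numbers of mice pooled differ between sources. Genome builds are stated as GRCm38 and GRCh38, so names and coordinates were taken from GENCODE vM21 (GRCm38) by transcript identifier without version. Of 137436 transcripts, 135107 matched (98.3%), and the unmatched ones held 0.667 to 3.90% of the counts. Estimates under 0.01 were set to 0.

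Estimated counts were summed per gene, rounded, filtered by expression, normalised by TMM and tested with edgeR 4.0.16 (quasi-likelihood, R 4.3.3, Benjamini-Hochberg over all genes). The SE given with an edgeR log2 fold change is its absolute value divided by the square root of the test's F statistic. It was worked back from the test and is approximate. Comparisons without day 7 contralateral libraries used the other 15 libraries (21129 genes), the rest all 18 (21262 genes). The length correction added, as an offset, each gene's effective length averaged with TPM weights. Transcripts were tested the same way, and average lengths by exact permutation of libraries with adjustment over 20 tests. The step was tested on simulated data. Alternatives were lengthScaledTPM counts, protein-coding transcripts only, no filter, DESeq2 1.42.0, limma-voom 3.58.1, full transcript length, all libraries and leaving out each library. Transcripts of at least 1000 bases alone and the corrected fits without single libraries were chosen after seeing the data.

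The members and all gene lists were chosen with earlier results of these data known. All 5 members and their paralogues were named, transcripts with a group mean of at least 10 counts singly, called pathway genes where a list had 5 or fewer, and the 3 most correlated genes per member. p-values measure the spread between pools. Left and right knees of the naïve mice were pooled separately, so naïve libraries share mice, as do injured and contralateral ones. The study accounted for shared pools (duplicateCorrelation in limma). The labels do not say which libraries share mice, so no block could be fitted here, and p-values that treat the 6 as independent may be too small.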

Additional observations from a re-analysis of the deposited data

Results flagged for a closer look

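Of 41 sets of 6 naïve values, 6 had a library far from the rest by Dixon's test (the gap to the nearest other library, as a share of the range), and chance gives about 1 in 20. In naïve replicate 3 the average length of Sos2 was 3662 bases, and 4051 to 4263 bases in the other 5. In naïve replicate 2 Ralgapa2-205 took 32.2% of the gene's counts (14.3 to 20.3% in the others), and Gpr89-204 took 0% (5.40 to 8.24% in the others). In naïve replicate 5 Ralgapa2-209 took 0.672% (1.80 to 2.45%). In naïve replicate 1 the coding transcripts of Vps26a were divided differently, with 18.3% for Vps26a-201 (7.18 to 10.5% in the others) and 78.9% for Vps26a-202 (86.9 to 89.5%). No cause of these values was tested.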

How the results depend on the processing

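The members' day 7 injured values, counts past a threshold included, are descriptions, and reads per short transcript (0 to 73.1 counts) limit every corrected value. No paired analysis was possible because the labels give no replicate numbers (those used here follow accession order) and do not say which pools share mice, so injured and contralateral libraries were compared as independent. With all libraries kept, 28 counts of called genes with day 7 injured libraries stayed within 1.5 times of the reported one, and 1 did not. Without day 7 injured libraries the reported count was 0 throughout, so that limit could not apply. There 36 counts were also 0 and 3 were not. For day 7 against day 1 injured, protein-coding transcripts alone gave 2075 calls (3257 otherwise), and DESeq2's Wald test gave 15, 2 and 8 calls for day 1 injured, day 1 contralateral and day 7 contralateral against naïve, where edgeR gave 0. Leaving out single libraries, the corrected count for day 7 injured against contralateral ranged from 1532 (without day 7 injured replicate 3) to 2625 (without day 7 contralateral replicate 3), with 2377 for all. The cause was not tested.

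Some uncalled changes turned sign. For day 1 injured against naïve, log2 fold changes with the length offset and with lengthScaledTPM were -0.0067 and -0.0089 for Gpr89 and -0.032 and -0.034 for Sos2, which was -0.00064 with no filter. For day 1 injured against contralateral they were -0.069 and -0.064 for Ralgapa2, -0.22 and -0.22 for Gpr89 and -0.017 and -0.011 for Esrrg (0.49 without the correction), and for day 1 contralateral against naïve 0.21 and 0.21 for Gpr89. For day 7 contralateral against naïve, Ralgapa2 was 0.0089 with protein-coding transcripts, 0.0021 with DESeq2 size factors and 0.0031 with its Wald test. The other 139 values kept their sign, and with day 7 injured libraries 105 values moved by less than their standard error and 25 by more.

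With protein-coding transcripts alone, the difference in average length of day 7 injured against naïve was -227 bases for Ralgapa2, 6.77 for Sos2, 2.13 for Gpr89, -385 for Vps26a and -881 for Esrrg. For the other comparisons with naïve it was 64.4 bases (day 1 contralateral) and -102 (day 7 contralateral) for Ralgapa2, 14.9 and 6.77 for Gpr89, and -40.2 and 28.5 for Sos2, with -62.6 for Sos2 in day 1 injured, and -9.09 for Gpr89 in day 1 injured against contralateral.

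Leaving out single libraries, log2 fold changes of day 1 injured against naïve ranged from -0.064 to 0.018 for Ralgapa2, -0.064 to 0.044 for Vps26a, -0.028 to 0.071 for Sos2 and -0.83 to 0.34 for Esrrg. Against day 1 contralateral they ranged from -0.024 to 0.080 for Ralgapa2, -0.0056 to 0.11 for Sos2 and -0.27 to 0.91 for Esrrg. Day 1 contralateral against naïve gave -0.090 to 0.0052 for Sos2, and day 7 contralateral against naïve -0.063 to 0.046 for Ralgapa2. For average length, the ranges in bases against naïve were -187 to 131 for Ralgapa2 in day 1 contralateral; in day 1 injured -71.6 to 134 for Gpr89, -15.5 to 163 for Sos2 and -163 to 943 for Esrrg; and in day 7 contralateral -428 to 113 for Vps26a, -121 to 109 for Gpr89, -222 to 335 for Sos2 and -354 to 60.7 for Esrrg. Day 1 injured against contralateral gave -13.1 to 62.9 for Vps26a and -154 to 25.6 for Sos2.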
